A study of Rattus norvegicus with 10 samples.

Results

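The genes of oxidative phosphorylation were examined in RNA sequencing data from dorsal root ganglia of the L6 level, which hold the cell bodies of sensory neurons, taken from Sprague Dawley rats. Members were chosen by gene name: the mitochondrially encoded subunit genes (Mt-nd, Mt-co, Mt-cyb, Mt-atp) and the nuclear Nduf, Uqcr, Atp5, Sdha to Sdhd and Cox4 to Cox8 genes, kept where CPM, the counts scaled to a common library size, were above 1 in at least 5 of the 10 libraries. Of 107 matching rows among the 30560 genes of the table, 96 were kept, and all 96 were among the 15186 genes with enough counts to be tested. They comprise 13 mitochondrially encoded and 83 nuclear genes, and the nuclear ones fall into complex I (38), complex II (4), complex III (7), complex IV (12), complex V (15) and the NDUFAF assembly factors (7). The 11 rows not kept include Atp5me, Ndufs6, the muscle isoform Cox6a2, Cox7b2 and Cox8c.

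The 5 PBS samples came from rats given phosphate-buffered saline and the 5 SCN9A_2544 samples from rats given a divalent siRNA, a small interfering RNA, against Scn9a at 0.75 mg, in 30 to 45 µL through a lumbar intrathecal catheter. All rats were 7 to 8 weeks old, carried the catheter, were anaesthetised with isoflurane, received meloxicam and were dosed 5 days after surgery. The labelled timepoint was 14 days for every sample, with no statement of whether it counts from surgery or from dosing. A group given a non-targeting siRNA was not analysed here, and whether a sample is 1 animal is not in the labels, so each p-value below refers to the spread between samples only.

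Oxidative phosphorylation takes place in the inner mitochondrial membrane. Complexes I to IV pass electrons to oxygen and, except for complex II, pump protons, and complex V uses the proton gradient to make ATP. Complexes I, III, IV and V are assembled from subunits encoded in both the mitochondrial and the nuclear genome, whereas all complex II subunits are nuclear. Sensory neurons have long axons and a high demand for ATP. The mitochondrial genome is transcribed from both strands as long precursors that are cut into single messages, and the nuclear genes are transcribed one by one.

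Library totals ran from 11832376 to 15420006 estimated counts. All 20 pan-neuronal markers and all 16 Schwann cell and myelin markers that were listed had counts, as a dorsal root ganglion label would have it. The mean of the pan-neuronal markers in log2 CPM spanned 7.87 to 9.08 in the PBS group and 7.69 to 9.06 in the SCN9A_2544 group, and the lowest 3 libraries were SCN9A_2544 replicate 3, PBS replicate 3 and PBS replicate 5. Scn9a, the siRNA's target, was at 175 ± 50.2 CPM in PBS and 85.4 ± 23.9 CPM in SCN9A_2544 samples (SD, n = 5 each), without overlap between the groups. Its edgeR log2 fold change was -1.03 (unadjusted p = 0.00134, adjusted p = 0.963 over all genes), and its DESeq2 adjusted p was 0.0707. The target itself was thus not called by either test, so a change of that size can go uncalled here.

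The first comparison was SCN9A_2544 against PBS, which the series design gives as a test of the siRNA's specificity. None of the 96 members passed the test in either direction. By the quasi-likelihood test of edgeR, Benjamini-Hochberg adjusted over the 15186 genes, 0 members were called higher and 0 lower at an adjusted p of 0.05, against 0% of all genes in each direction, and DESeq2 called 0 members as well, against 0.079% of all genes. At an unadjusted p under 0.05, 8 members were lower and 0 higher by edgeR, against 1.73% of all genes lower, 2.5% higher and 4.23% in either direction, and DESeq2 gave 15 members, all lower, against 2.71% of all genes lower. The edgeR count of 8 became 2 without SCN9A_2544 replicate 1 (0.835% of all genes lower) and 14 without PBS replicate 4 (4.88%). It was 4 without PBS replicate 1 (2.4%) or PBS replicate 5 (1.11%), and 5 without SCN9A_2544 replicate 2 (0.986%). Of those 8 members 3 were mitochondrially encoded, and their number ran from 0 to 7 when 1 library was left out. In all 22 alternative fits the count of called members was 0.

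The log2 fold changes of the members leaned below 0 without passing the test. They were below 0 for 13 of 13 mitochondrially encoded genes and for 70 of 83 nuclear genes, against 46.6% of all genes tested, of which 53.4% were above 0. The median log2 fold change was -0.37 over the mitochondrially encoded genes and -0.10 over the nuclear genes, against 0.02 over all genes. The counts below 0 are not independent observations, since the mitochondrial messages come from shared precursors and all members were read from the same 10 libraries. Without PBS replicate 1 the nuclear median was -0.026 and 62 of the 96 members were below 0, and without PBS replicate 5 it was -0.17 and 93 were. With limma voom and library weights 51 of the 96 members were below 0 and the nuclear median was 0.03, while 13 of 13 mitochondrially encoded genes stayed below 0.

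**Figure D1:**
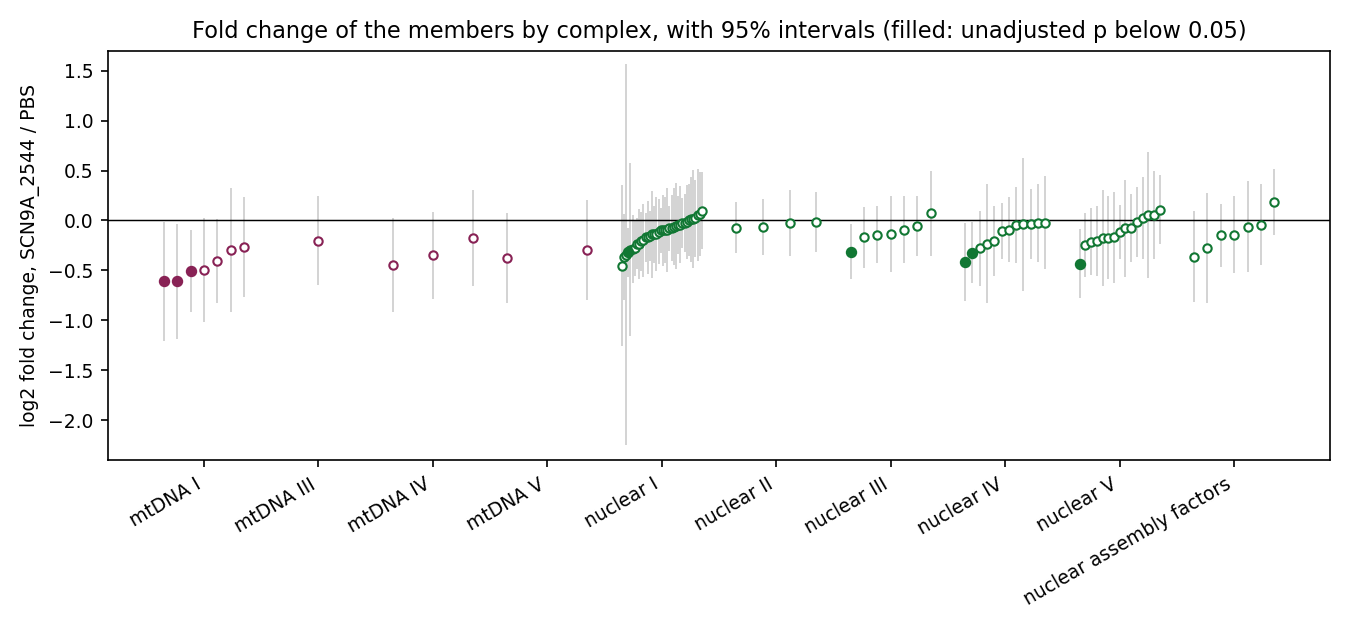
Log2 fold change of SCN9A_2544 against PBS (y axis) for the 96 members, grouped by genome and complex along the x axis and sorted within each group, with 95% intervals as grey lines. Filled points mark the 8 members with an unadjusted edgeR p under 0.05, all of them below 0, and 0 members passed the adjusted threshold.

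The 4 mitochondrially encoded genes with the lowest log2 fold changes, Mt-nd2, Mt-nd4, Mt-nd6 and Mt-nd1, belong to complex I, the NADH dehydrogenase. Mt-nd2 was at 1991, 2456, 3493, 1260 and 3793 CPM in PBS replicates 1 to 5 and at 1711, 1493, 1830, 1822 and 1655 CPM in SCN9A_2544 replicates 1 to 5. Its edgeR log2 fold change was -0.61 (SE 0.27, 95% interval -1.20 to -0.02, adjusted p = 0.963). The treated libraries lay within the range of the PBS libraries, where replicates 3 and 5 were high and replicate 4 was the lowest of all 10.

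Mt-nd4 was at 3096, 2973, 3284, 1555 and 4419 CPM in the PBS libraries and at 2051, 1861, 2711, 1903 and 1522 CPM in the treated ones, in the order of their replicate numbers. The log2 fold change was -0.61 (95% interval -1.19 to -0.03), and the groups overlapped through PBS replicate 4 alone. Mt-nd6, the subunit gene on the other mitochondrial strand, was at 432, 368, 478, 235 and 455 CPM in PBS and at 243, 264, 315, 299.6 and 266 CPM in treated libraries. For Mt-nd6 too PBS replicate 4 was below the treated libraries while the other PBS libraries were above them, and the log2 fold change was -0.51 (SE 0.19, 95% interval -0.92 to -0.09, edgeR unadjusted p = 0.0205, adjusted p = 0.963). Mt-nd4l and Mt-nd4 overlap in the genome, as do Mt-atp8 and Mt-atp6, and copies of mitochondrial sequence lie in the nuclear genome, so the split of reads between them is uncertain. The strand setting of the counts was not given, so reads from the opposite strand may be among those of Mt-nd6.

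The other complex I genes of the mitochondrial genome had log2 fold changes of -0.50 (Mt-nd1), -0.41 (Mt-nd3), -0.29 (Mt-nd4l) and -0.27 (Mt-nd5). Mt-cyb, the cytochrome b of complex III, had a mean of 4993 ± 1140 CPM over PBS samples and of 4332 ± 435 CPM over treated samples (SD, n = 5 each), a log2 fold change of -0.21 (95% interval -0.65 to 0.24). For complex IV, cytochrome c oxidase, the log2 fold changes were -0.17 for Mt-co1, -0.35 for Mt-co2 and -0.45 for Mt-co3. Those of the complex V genes were -0.37 for Mt-atp6 and -0.30 for Mt-atp8. Of the 13 mitochondrially encoded genes, all except Mt-nd2, Mt-nd4 and Mt-nd6 had a 95% interval that included 0.

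PBS libraries were more spread than treated libraries for every mitochondrially encoded gene, with a larger SD of CPM in PBS for 13 of 13, against 52 of 83 nuclear genes. PBS replicate 5 was the highest of all 10 libraries in 10 of these genes and PBS replicate 3 in the other 3, while PBS replicate 4 was the lowest in 6. Together the 13 genes took 3.62% to 6.40% of the counts in PBS and 3.57% to 4.44% in treated libraries. Their mean was 10.67, 10.82, 11.07, 10.22 and 11.25 log2 CPM in PBS replicates 1 to 5 and 10.45, 10.30, 10.62, 10.50 and 10.43 in treated replicates 1 to 5. The group means were 10.81 ± 0.40 and 10.46 ± 0.12 log2 CPM (SD, n = 5 each). The difference of -0.34 was smaller in size than the SD of the PBS samples and larger than that of the treated samples.

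**Figure D2:**
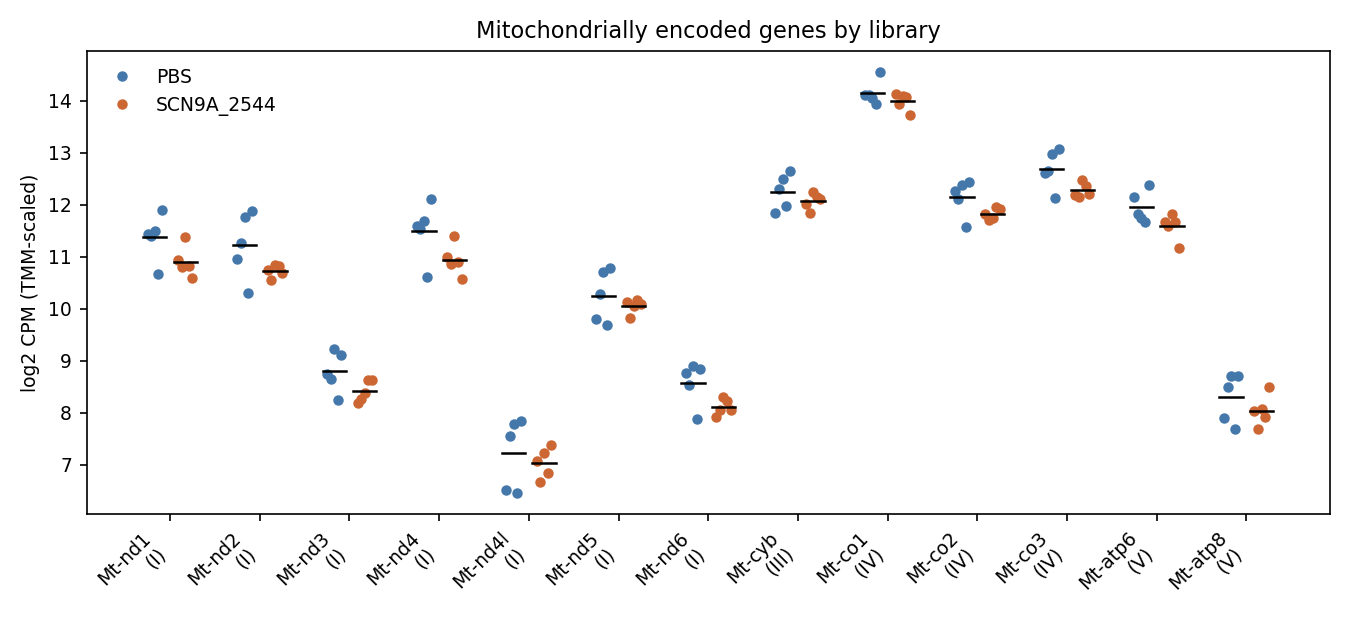
TMM-scaled log2 CPM (y axis) of the 13 mitochondrially encoded genes (x axis, with the complex in brackets), 1 point for each library and a black line for each group's mean. The PBS points spread more widely than the SCN9A_2544 points in every gene, and the groups overlap in every gene.

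Of the nuclear complex I subunits, Ndufa6 and Ndufc2, both accessory subunits, were the members whose groups did not overlap. Ndufa6 was at 50.1, 49.7, 47.2, 51.1 and 51.3 CPM in PBS and at 44.7, 44.0, 37.3, 33.4 and 40.5 CPM in treated libraries. Its log2 fold change was -0.32 (SE 0.11, 95% interval -0.57 to -0.07, edgeR unadjusted p = 0.0158, adjusted p = 0.963). Ndufc2 was at 108, 83.2, 87.9, 82.7 and 87.4 CPM in PBS and at 77.1, 80.0, 58.6, 77.8 and 76.8 CPM in treated libraries, with a log2 fold change of -0.28 (95% interval -0.56 to 0.00). Every treated library was below every PBS library for both genes. Such a separation with lower treated values was seen in 2 of 96 members and in 0.211% of all genes, and one with higher treated values in 0 members and 0.454% of all genes.

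The remaining members with an unadjusted p under 0.05 were small subunits of the later complexes. Uqcr10, of complex III, had a mean of 65.0 ± 6.19 CPM over PBS samples and of 52.4 ± 6.925 CPM over treated samples, a log2 fold change of -0.31 (95% interval -0.59 to -0.04). For complex IV, Cox6c had a log2 fold change of -0.32 (95% interval -0.63 to -0.02) and Cox7a2l2 one of -0.42 (95% interval -0.81 to -0.02). Atp5mk, a small subunit of complex V, was at 187, 155, 136, 128 and 182 CPM in PBS and at 113, 121, 90.9, 144 and 115 CPM in treated libraries, a log2 fold change of -0.43 (SE 0.16, 95% interval -0.78 to -0.09, edgeR adjusted p = 0.963). The groups of these 4 genes overlapped, for Atp5mk through treated replicate 4.

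By class, the nuclear medians of the log2 fold change were -0.10 for complex I, -0.04 for complex II, -0.13 for complex III, -0.10 for complex IV, -0.12 for complex V and -0.14 for the assembly factors. The smallest p in complex II belonged to Sdhc, a membrane anchor of succinate dehydrogenase (log2 fold change -0.07, 95% interval -0.32 to 0.18), and to Sdhd, the other anchor (-0.07, 95% interval -0.35 to 0.22). Uqcrb in complex III had -0.17 (95% interval -0.47 to 0.13) and Atp5pd in complex V had -0.25 (95% interval -0.57 to 0.07). Of the assembly factors, Ndufaf2 was at -0.36 (95% interval -0.82 to 0.09) and Ndufaf3 at 0.18 (95% interval -0.15 to 0.51).

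Of the other cell types checked, macrophages were the one whose summed markers did not overlap between the groups. The sum of the 14 macrophage markers was 171 to 259 CPM in PBS and 279 to 499 CPM in treated libraries, without overlap. Of the 14, 8 had an unadjusted edgeR p under 0.05, all higher in treated samples, against 2.5% of all genes higher. Cd163 went the other way, with a mean of 5.57 CPM in PBS and 3.85 CPM in treated samples. The sum of 10 satellite glia markers was 3520 to 4959 CPM in PBS and 4667 to 5476 CPM in treated libraries. At an unadjusted edgeR p under 0.05, 3 of the 10 were higher and 0 lower in treated samples. Red blood cell markers (7 genes) summed to 286 to 3883 CPM in PBS and 967 to 2036 CPM in treated libraries, skeletal muscle markers (12 genes) to 23.5 to 104 and 17.1 to 139 CPM, and fat markers (10 genes) to 14.1 to 21.3 and 12.1 to 21.4 CPM. At an unadjusted edgeR p under 0.05, 1 skeletal muscle marker and 1 fat marker were lower in treated samples, against 1.73% of all genes lower. At the adjusted threshold edgeR called 0 markers of these 5 lists and DESeq2 called 1, a macrophage marker. Every marker with a row in the table had counts in at least 1 library. The part of these cells in the members' values was not tested.

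The pan-neuronal mean ranged widely within each group, and fits with it as a further term were made as alternatives. In these fits 20 members had an unadjusted p under 0.05, all lower in treated samples, against 3.25% of all genes lower, and 0 passed the adjusted threshold. With the Schwann cell and myelin mean in its place there were 21 such members, all lower, against 2.95% of all genes lower, and again 0 were called. When the 3 libraries lowest in the pan-neuronal mean were left out, 5 members had an unadjusted p under 0.05, all lower, against 1.86% of all genes lower, 11 of 13 mitochondrially encoded genes were below 0, and their median log2 fold change was -0.18, less than with all libraries.

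The second comparison asked how the members followed the pan-neuronal mean across the 10 libraries. The slope of each gene on that mean, in log2 units per log2 unit, was fitted with edgeR over all genes with treatment as a further term. Mitochondrially encoded and nuclear genes had slopes of opposite sign. Of the 13 mitochondrially encoded genes 13 had a slope below 0, and 6 were called, all negative, against 20.7% of all genes called negative. Of the 83 nuclear genes 78 had a slope above 0, against 49.5% of all genes, and 42 were called positive and 1 negative, against 22.1% of all genes called positive. Of the 16 Schwann cell and myelin markers, 16 had a slope below 0 and 15 were called negative, with a median slope of -1.56, so the libraries low in neuronal markers were those high in them. The part of either cell type in the members' slopes was not tested. The median slope was -0.40 over mitochondrially encoded genes, 0.35 over nuclear genes and -0.01 over all genes tested. In these bulk samples, fewer cells of a type and less RNA per cell cannot be told apart.

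These calls rested on a few libraries. With the 3 libraries lowest in that mean left out, an alternative chosen after seeing the data that leaves a narrow range of that mean, 0 members were called in either direction, against 0.013% of all genes positive and 0.24% negative. In that fit 12 of 13 mitochondrially encoded slopes were below 0 and 64 of 83 nuclear slopes were above 0. The 6 mitochondrially encoded calls became 0 without PBS replicate 4 (19.6% of all genes called negative) and 4 without PBS replicate 1 (18.9%). They became 2 without PBS replicate 3 (16.5%), PBS replicate 5 (19.6%) or SCN9A_2544 replicate 2 (18%), and 7 without SCN9A_2544 replicate 3 (16%). The 42 positive nuclear calls became 27 without SCN9A_2544 replicate 3 (16.6% of all genes called positive) and 46 without PBS replicate 4 (20.6%). The mitochondrially encoded slopes were below 0 for 13 of 13 genes in each fit that left out 1 library.

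**Figure D3:**
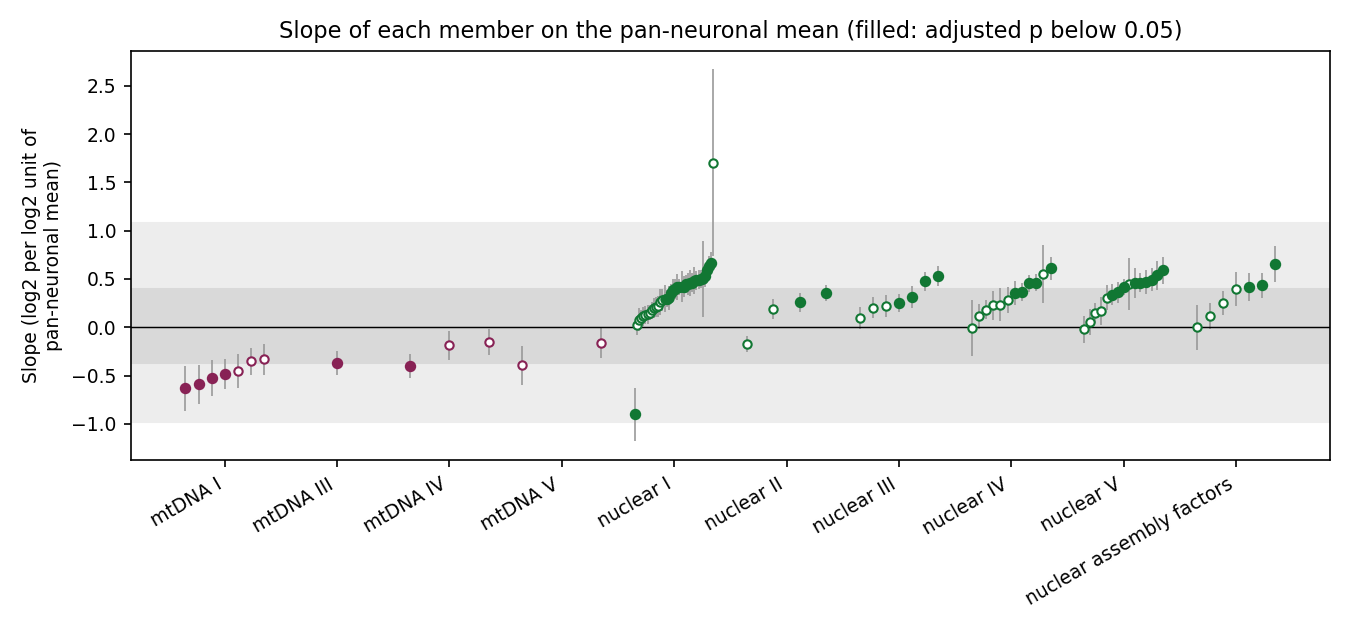
Slope of each member on the pan-neuronal mean (y axis, log2 per log2 unit, with SE as grey lines), grouped by genome and complex along the x axis. Filled points passed an adjusted edgeR p of 0.05, the darker band runs from the 25th to the 75th percentile of all tested genes (-0.37 to 0.39), and the lighter band runs from their 5th to their 95th percentile (-0.98 to 1.08).

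The 6 called mitochondrially encoded genes were Mt-nd1 (slope -0.48, adjusted p = 0.0275 by edgeR), Mt-nd2 (-0.59), Mt-nd4 (-0.53), Mt-nd4l (-0.63), Mt-cyb (-0.37) and Mt-co3 (-0.40). The slopes of Mt-nd3 (-0.33), Mt-nd5 (-0.46), Mt-nd6 (-0.35) and Mt-atp8 (-0.40) did not pass the test. Those of Mt-co1 (-0.15), Mt-co2 (-0.18) and Mt-atp6 (-0.16) were the least steep. Mt-co3, a core subunit of cytochrome c oxidase, was at 6277, 6467, 8073, 4478 and 8676 CPM in PBS and at 4664, 4546, 5705, 5288 and 4725 CPM in treated libraries. PBS replicates 3 and 5 were its highest libraries, and both had a low pan-neuronal mean, while treated replicate 3, the lowest in that mean, was the highest treated library.

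Nuclear genes of every class were among the positive calls, against 22.1% of all genes called positive. The calls were 19 of 38 for complex I, 2 of 4 for complex II and 4 of 7 for complex III. They were 5 of 12 for complex IV, 9 of 15 for complex V and 3 of 7 for the assembly factors. Complex II, with no mitochondrially encoded subunit, had Sdha, the flavoprotein of succinate dehydrogenase, as its steepest member (slope 0.35, SE 0.08), and Sdhc at -0.17, which did not pass the test.

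In complex III the slope was highest for Uqcrc1, a core protein (0.54, SE 0.10, edgeR adjusted p = 0.00160), and lowest for Uqcrq (0.10). Uqcrc1 was at 205, 157, 134, 230 and 124 CPM in PBS and at 189, 216, 134, 172 and 181 CPM in treated libraries. Its lowest 3 libraries were PBS replicate 5, PBS replicate 3 and treated replicate 3, the 3 with the lowest pan-neuronal mean. In complex IV, Cox5a had the steepest slope (0.61, SE 0.12), and the ubiquitous isoform Cox4i1 had 0.46 (SE 0.09, edgeR adjusted p = 0.00160). Cox4i1 was at 341, 264, 230, 375 and 244 CPM in PBS and at 315, 318, 221, 263 and 293 CPM in treated libraries, with treated replicate 3 and PBS replicates 3 and 5 the lowest.

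Isoforms known from other tissues were near the threshold of the rule. Cox4i2, the isoform known from lung, ran from 0.961 to 1.71 CPM over PBS and from 0.748 to 1.55 CPM over treated libraries, and its slope was -0.01 (SE 0.29). Cox7a1, the heart and muscle isoform, was at 3.73 ± 0.82 and 3.64 ± 1.48 CPM (SD, n = 5 each), with a slope of 0.56 (SE 0.30) that did not pass the test. Cox6a2 reached 0.484 CPM at most, and Cox7a2, Cox8a, Cox8b and Cox6b2 were not analysed here.

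Ndufa4 is named for complex I and is known as a subunit of complex IV. By their names, Ndufa4 and Ndufa4l2 were both counted in complex I here. Ndufa4 had a slope of 0.48 (SE 0.14, edgeR adjusted p = 0.0136). Its paralog Ndufa4l2, known as a target of hypoxia-inducible factor, was the nuclear gene called in the other direction, with a slope of -0.90 (SE 0.28, edgeR adjusted p = 0.0209). Without SCN9A_2544 replicate 3, 0 nuclear genes were called negative (16% of all genes), and 0 were with limma voom (16.3%). Ndufa4l2 was low, at 1.10, 2.53, 2.95, 2.05 and 2.94 CPM in PBS and at 1.46, 2.04, 3.75, 1.13 and 1.08 CPM in treated libraries, highest in the 3 libraries of lowest pan-neuronal mean. The highest slope in complex I was that of a second row named Ndufa10l1 (1.702, SE 0.97), which ran from 0.953 to 16.998 CPM between libraries and did not pass the test, and 9 kept rows share a name with another row, so reads may have been divided between them.

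The assembly factor Ndufaf6 had a slope of 0.66 (SE 0.18) and Ndufaf2 one of -0.0011 (SE 0.23).

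Because most nuclear members moved together, their promoters were searched for short motifs of factors known to control respiratory chain genes. RefSeq promoters of the build GRCr8, running from 250 bases before to 50 bases after each start, were matched for 71 of 80 nuclear member names. The core CGCATGCG of the NRF1 motif was found in 11.3% of the member promoters, against 3.38% of the 10859 promoters of tested genes and 1.66% of all 33469 promoters. The ETS motif CCGGAAG, bound by GABP, was found in 26.8%, 16.3% and 8.75%, and the YY1 motif AAGATGGCG in 12.7%, 3.44% and 1.73%. The ERR motif AAGGTCA was found in 11.3%, 2.87% and 4.61%, the SP motif GGGCGG in 40.8%, 61.4% and 33.1%, and the sequence TATAAA in 8.45%, 6.78% and 14.2%. Both strands were searched, and none of the motifs contains another.

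The 4 promoters below are shown because their genes differ in slope or in treatment and hold different motifs or none. Each is given 5′ to 3′ in the direction of the gene, from 250 bases before to 30 bases after the start, with NRF1, ETS and YY1 motif letters on either strand in capitals. Uqcrc1, at chr8:118467973-118468252 (plus strand), holds 1 NRF1 motif at offset -38 and 1 YY1 motif at offset -1, the first base past the start being offset 0. Cox4i1, at chr19:65630133-65630412 (plus strand), holds 2 ETS motifs, at offsets 3 and 23 and both on the opposite strand. Ndufa6, at chr7:115750288-115750567 (minus strand), holds 1 ETS motif at offset -190 and 1 YY1 motif at offset 15. Ndufa4l2, at chr7:65241919-65242198 (plus strand), holds 0 of the 3 motifs in this window.
Uqcrc1: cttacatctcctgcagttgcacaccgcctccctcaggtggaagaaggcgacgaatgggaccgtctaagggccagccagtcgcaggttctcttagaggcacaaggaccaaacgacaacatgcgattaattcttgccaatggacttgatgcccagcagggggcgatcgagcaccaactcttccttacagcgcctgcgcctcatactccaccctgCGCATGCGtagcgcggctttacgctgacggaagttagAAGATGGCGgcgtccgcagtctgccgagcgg
Cox4i1: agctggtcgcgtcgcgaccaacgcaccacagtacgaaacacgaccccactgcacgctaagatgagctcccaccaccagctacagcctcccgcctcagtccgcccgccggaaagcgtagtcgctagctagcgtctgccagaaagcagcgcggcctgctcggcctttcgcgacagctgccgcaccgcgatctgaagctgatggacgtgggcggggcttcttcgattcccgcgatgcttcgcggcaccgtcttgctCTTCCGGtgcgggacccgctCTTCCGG
Ndufa6: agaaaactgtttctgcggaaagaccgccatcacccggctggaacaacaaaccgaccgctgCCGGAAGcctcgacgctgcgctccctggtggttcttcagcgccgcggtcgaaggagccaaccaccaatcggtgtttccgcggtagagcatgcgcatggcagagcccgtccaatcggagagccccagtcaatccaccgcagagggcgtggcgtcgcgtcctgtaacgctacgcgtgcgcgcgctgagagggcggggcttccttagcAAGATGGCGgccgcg
Ndufa4l2: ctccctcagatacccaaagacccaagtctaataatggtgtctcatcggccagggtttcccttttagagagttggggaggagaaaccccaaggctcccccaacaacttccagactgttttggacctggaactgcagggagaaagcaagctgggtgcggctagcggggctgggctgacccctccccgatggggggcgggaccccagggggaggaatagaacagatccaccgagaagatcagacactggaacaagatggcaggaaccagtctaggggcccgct

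The median slope was 0.32 over the 30 matched genes with at least 1 of the NRF1, ETS and YY1 motifs and 0.35 over the 41 genes with none. Uqcrc1 and Cox4i1, with slopes of 0.54 and 0.46, hold a motif, and so does Ndufa6, with a slope of 0.11. A match describes letters in this window and is not a measured binding site.

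The messages of the factors themselves had slopes of both signs. These 6 regulators were picked after their values had been seen. Ppargc1a, the coactivator PGC-1 alpha, had a slope of 1.48 (SE 0.28) and Esrra, an estrogen-related receptor, one of 0.57 (SE 0.13), both called positive by edgeR. Nrf1 (-0.49, SE 0.09), Gabpa (-0.43, SE 0.10) and Tfam, the packaging and transcription factor of mitochondrial DNA (-0.41, SE 0.14), were called negative by edgeR. Yy1 had -0.23 (SE 0.14) and did not pass the test. Tfam was no longer called without PBS replicate 3, PBS replicate 4 or SCN9A_2544 replicate 1, and once the 3 libraries lowest in the pan-neuronal mean were left out 0 of the 6 were called.

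Related pathways were counted in the same 2 fits, against the 22.1% of all genes with a called positive and the 20.7% with a called negative slope. Of 19 genes of the citric acid cycle, 16 had a called positive slope and 1 a called negative slope, with a median of 0.39, and of 21 glycolytic genes 14 were positive and 1 negative, with a median of 0.54. Of 71 genes of the mitochondrial ribosome 11 were positive and 2 negative (median 0.18), and of 90 rows of the cytosolic ribosome 0 were positive and 57 negative (median -0.40). Cytochrome c and complex assembly genes had 10 positive and 1 negative of 32, mitochondrial carriers and import 6 and 0 of 18, antioxidant enzymes 5 and 0 of 11, mitochondrial transcription and RNA processing 5 and 2 of 25, mitochondrial DNA replication 2 and 1 of 13, and biogenesis regulators 7 and 7 of 20. The positive shares of the mitochondrial ribosome, of mitochondrial transcription and RNA processing and of mitochondrial DNA replication were below that of all genes.

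For treatment, edgeR called 0 genes of these 10 lists in either direction. The cytosolic ribosome had 85 of 90 rows below 0 with a median log2 fold change of -0.25, against 46.6% of all genes below 0. The mitochondrial ribosome had 51 of 71 below 0 with a median of -0.08. The mean of the cytosolic ribosomal genes ran from 5.82 to 6.50 log2 CPM in PBS and from 5.83 to 6.38 in treated libraries. At an unadjusted edgeR p under 0.05, 1.73% of all genes were lower and 2.5% higher. In these lists there were 6 lower of 90 in the cytosolic ribosome and 1 lower of 18 in carriers and import (Hspe1, a mitochondrial co-chaperone, log2 fold change -0.25). There was 1 higher of 20 among the biogenesis regulators. The latter was Pprc1, a coactivator related to PGC-1, at 18.8, 15.43, 18.2, 20.8 and 17.3 CPM in PBS and at 26.7, 23.0, 23.8, 23.2 and 24.1 CPM in treated libraries. Every treated library was above every PBS library, as was seen in 0.454% of all genes. Pprc1 was named because it had the smallest p of its list. Its log2 fold change was 0.41 (SE 0.12, edgeR unadjusted p = 0.00508, adjusted p = 0.963, DESeq2 adjusted p = 0.224).

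The balance of the 2 genomes was taken within each library as the mean log2 CPM of the mitochondrially encoded genes minus that of the nuclear genes. Since gene length is not in the table, its size has no meaning between complexes and it is compared between libraries only. Over all members it was 4.27, 4.79, 5.15, 3.99 and 5.22 in PBS replicates 1 to 5 and 4.39, 4.201, 4.96, 4.45 and 4.31 in treated replicates 1 to 5. PBS replicates 3 and 5 and treated replicate 3 were the highest. The group means were 4.68 ± 0.54 and 4.46 ± 0.29 (SD, n = 5 each), a difference of -0.22, smaller than the SD of either group.

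**Figure D4:**
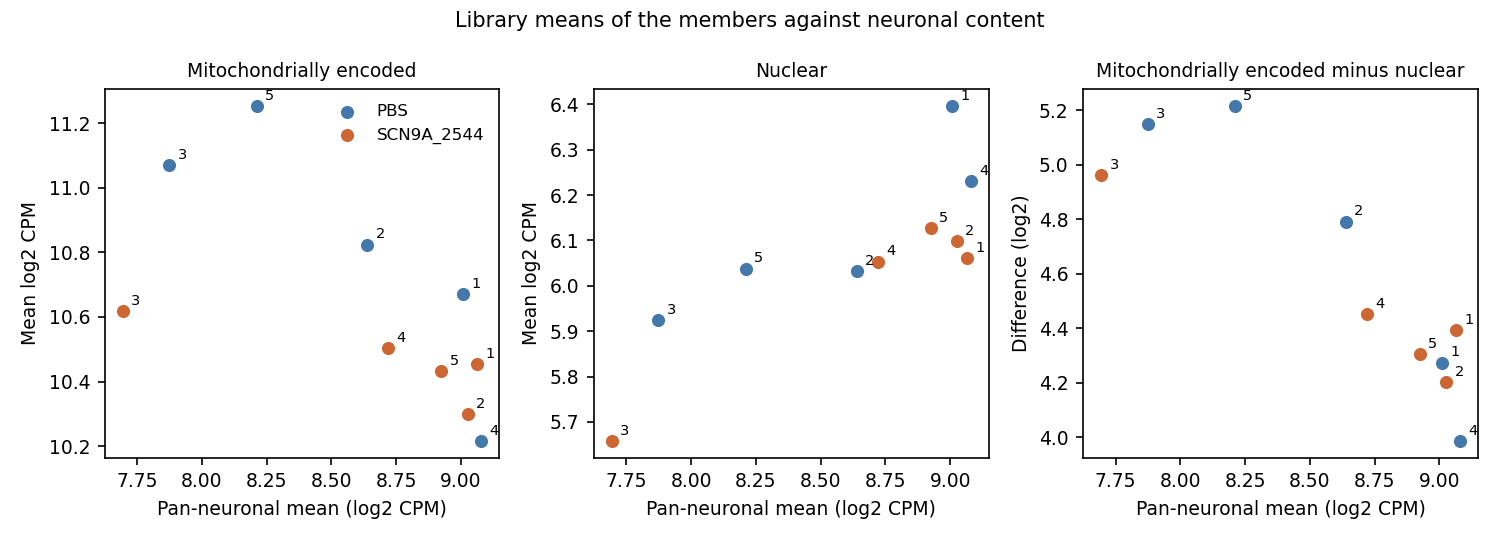
Mean log2 CPM of the mitochondrially encoded genes, mean log2 CPM of the nuclear genes and the difference between them (y axes, left to right) against the pan-neuronal mean (x axis, log2 CPM), 1 numbered point for each library. The 3 libraries with a pan-neuronal mean of 7.69 to 8.21 have the 3 highest differences, and treated replicate 3 has the lowest nuclear mean (5.66).

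The nuclear mean was 6.40, 6.03, 5.92, 6.23 and 6.04 log2 CPM in PBS and 6.06, 6.10, 5.66, 6.05 and 6.13 in treated libraries. The difference between the group means was -0.12, smaller than the SD of either group (0.19). PBS replicate 1 was the highest of all libraries in 50 of 83 nuclear genes and treated replicate 3 the lowest in 59. PBS replicate 5, the highest library for most mitochondrially encoded genes, was the highest in 3 nuclear genes.

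The same 3 libraries had the highest balance in each complex with subunits from both genomes. For complex I it was 3.40, 3.97, 4.44, 2.96 and 4.41 in PBS and 3.50, 3.27, 4.11, 3.57 and 3.41 in treated libraries. The difference between group means, SCN9A_2544 minus PBS, was -0.26 for complex I, -0.06 for complex III, -0.15 for complex IV and -0.21 for complex V, each smaller than the SD of the PBS libraries (0.65, 0.50, 0.38 and 0.49). The mean of the complex II genes differed by -0.05 and that of the assembly factors by -0.13.

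**Figure D5:**
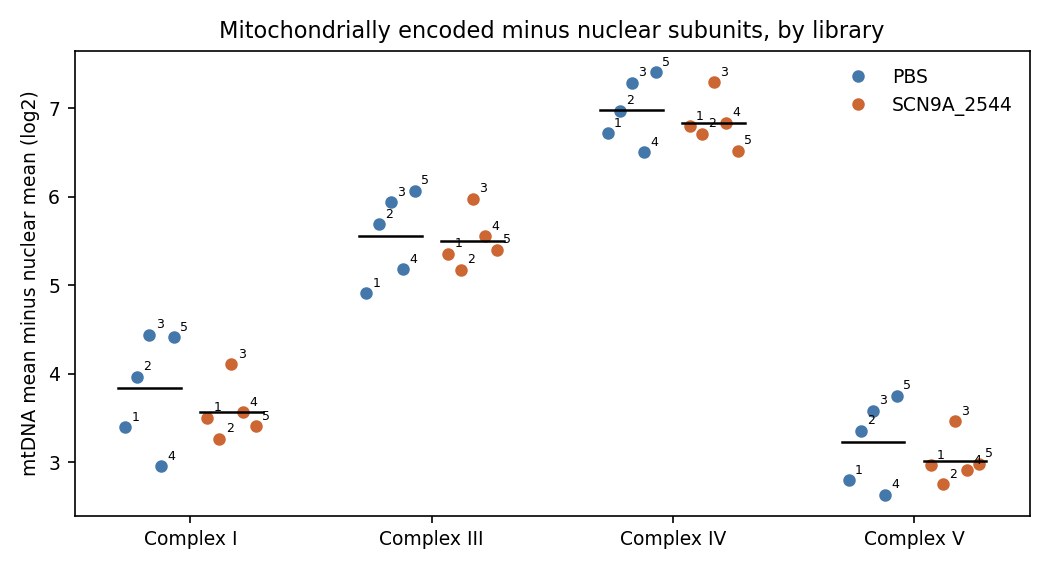
Mean log2 CPM of the mitochondrially encoded subunits minus that of the nuclear subunits (y axis) in each library, by complex (x axis), with replicate numbers beside the points and black lines for the group means. In each complex PBS replicates 3 and 5 and SCN9A_2544 replicate 3 have the 3 highest values.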

How the data were processed

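RNA from 5 PBS and 5 SCN9A_2544 samples was poly(A)-selected and sequenced as paired reads of 150 bases, per the labels' protocols. The authors deposited 1 table of expected counts (estimated counts) per gene, not normalized, in which 11.6% to 12.4% of the values in a library are not whole numbers. STAR 2.7.10a, DESeq2 1.44.0 and the build mRatBN7.2 appear, with no role, in the submitters' processing notes. The counting program, its annotation and the strand setting were not given in the sources used here. No library batch is in the labels. A chi-square per gene between library pairs ran from 7.79 to 221 over 45 pairs, so no library repeats another.

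Counts were rounded to whole numbers. The filterByExpr function of edgeR (minimum count 10, minimum total 15) left 15186 genes, libraries were scaled with TMM, and edgeR 4.0.16 in R 4.3.3 fitted the quasi-likelihood test with Benjamini-Hochberg adjustment over all genes and a threshold of 0.05. Standard errors are the size of a log2 fold change or slope divided by the square root of F. CPM are TMM-scaled, log2 CPM use a prior count of 2, and the rule's CPM minimum used CPM scaled by library totals alone. The procedure was also run on simulated counts, drawn separately for each gene. The outcome is not given here, and no result above rests on it. Alternatives were DESeq2 1.42.0, limma 3.58.1 voom, other scalings and filters, covariates, a replicate block, left-out libraries and summed rows of 1 name.

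The members, the gene lists and the tests were chosen with earlier results of these data known, so no set test, score test or p adjusted over the members alone is given. Named are every mitochondrially encoded member, in each nuclear class the 2 members of smallest p for treatment and those of highest and lowest slope, every member with an unadjusted p under 0.05, tissue isoforms, Ndufa4 and its paralog, listed pathway genes of smallest p, and Scn9a. Other genes are said to have been chosen after their values were seen. Some genes that the rule names are not reported here.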

Additional observations from a re-analysis of the deposited data

Results flagged for a closer look

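A total of 43 measures (library summaries, member means and single genes) were tested in both groups, 86 groups of 5 in all. Chance flags about 1 group in 20 for a single measure. The measures are not independent and some genes were named for their slope or p, so that rate does not hold over them. Of the 86 groups, 7 held a library standing apart from the other 4. In the treated group replicate 3, the library with the lowest pan-neuronal mean, stood below the rest in 6 of them. The nuclear members took 0.762% of its counts, against 1.04% to 1.06% in the other treated libraries, and their mean was 5.66 log2 CPM, against 6.05 to 6.13. Cox5a, a complex IV subunit, was at 93.2 CPM, against 135 to 151, and Cox6b1, also of complex IV, at 59.8 CPM, against 76.4 to 80.5. Ndufc2, of complex I, was at 58.6 CPM, against 76.8 to 80.0, and Sdhd, of complex II, at 73.8 CPM, against 92.7 to 101. In the PBS group Ndufc2 was highest in replicate 1, at 108 CPM, against 82.7 to 87.9 in the other PBS libraries, so both groups of this gene held a library that stood apart. The cause of these values was not tested.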

How the results depend on the processing

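The count of members called for treatment was 0 in all 22 alternatives. The mean of the mitochondrially encoded members, SCN9A_2544 minus PBS (-0.34), ran from -0.50 to -0.17 over its alternatives, that of the nuclear members (-0.12) from -0.17 to -0.06, and their difference (-0.22) from -0.39 to -0.01. The 42 positive and 7 negative slope calls became 27 to 46 and 1 to 7 when 1 library was left out. The shares of all genes were then 16.6% to 21.9% positive and 16% to 20.2% negative. The calls became 0 and 0 when the 3 libraries lowest in the pan-neuronal mean were left out together (0.013% and 0.24% of all genes). The negative calls became 2 with no filter on low counts, where 22236 genes were tested and 13.5% were called negative. They reached 9 with DESeq2 (22.1% of all genes called negative). Of 672 slopes of named genes under alternatives 556 kept their direction and side of the threshold, 82 lost the call, 13 gained one and 21 changed sign, and of 660 log2 fold changes 655 kept both, 2 (of Scn9a, with a covariate: -1.15 and -1.16) gained a call and 3 changed sign. The cause of these changes was not tested.

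Sign changes in log2 fold change were Sdhd with limma voom (0.041) and, with the 3 libraries lowest in that mean left out, Mt-nd5 (0.088) and Mt-nd4l (0.050). Without those 3 libraries the slopes of Mt-atp6 (0.13), Ndufa10l1 (-0.72) and Cox7a1 (-0.46) changed sign. The slope of Ndufaf2, near 0, changed sign with DESeq2 size factors (0.0036), upper-quartile scaling (0.0062), scaling without mitochondrially encoded genes (0.0040), no filter (0.0090) and a CPM filter for all genes (0.0013). Over the fits leaving out 1 library the slope of Ndufaf2 ran from -0.52 to 0.16 and that of Cox4i2 from -0.13 to 0.10.

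A fit with the replicate number as a block called 0 members for treatment and 0 positive and 0 negative slopes, as well as 0 slopes over all genes. With the replicate block the slopes of Cox4i2 (0.11), Ndufa4 (-0.16) and Tfam (0.0017) changed sign. Whether libraries of the same number share anything beyond it is not in the labels. Their deviations were correlated at 0.38, 0.0050, 0.57, -0.0063 and 0.051 for numbers 1 to 5. Only numbers 1 and 3 correlated best with their own. Both replicate 3 libraries were among the 3 lowest in the pan-neuronal mean. These correlations therefore cannot tell a shared block from a shared neuronal content.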
